A study of Mus musculus with 24 samples.

Results

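The genes described here encode proteins of the centromere and of the kinetochore, the protein assembly that ties each chromosome to the spindle. They were chosen by name as the rows of the count table called Cenp followed by 1 letter from a to x, together with Cenpc1, named subunits of the Ndc80, Mis12, Knl1 and Mis18 complexes, the Knl1 partner Zwint and the chaperone Hjurp. The choice took 34 of the 55401 genes in the table, and all 34 were among the 16736 genes that passed the filter on low counts. Cenpb passed it only through in vivo PSMPs, where it is highest, and it was at 0 in all 4 control libraries.

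A centromere is marked by nucleosomes that hold the histone H3 variant CENP-A. The constitutive centromere-associated network (CCAN), built from the CENP-C, CENP-L-N, CENP-H-I-K-M, CENP-O-P-Q-U and CENP-T-W-S-X units, sits on this chromatin and recruits the KNL1, MIS12 and NDC80 complexes, which bind microtubules. In a mouse oocyte the kinetochores carry homologous chromosomes, and then sister chromatids, through the meiotic divisions, using proteins and transcripts that the oocyte stored while it grew.

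RNA was sequenced from mouse oocytes in 6 groups of 2 libraries, with 5 pooled oocytes per library, to follow what microplastics (PSMPs in the labels) and histone deacetylases do to oocytes. The groups were PSMPs & OE-Hdac3, exposed oocytes with overexpression of the histone deacetylase gene Hdac3; in vitro PSMPs and in vivo PSMPs, oocytes exposed outside and inside the animal; SAHA, oocytes given SAHA (vorinostat), which inhibits histone deacetylases; con-in vitro, the control named for in vitro work; and con, the other control. Strain, age, dose, meiotic stage, how the overexpressing oocytes were exposed and the control that belongs to SAHA are not given in the sources used here, so PSMPs & OE-Hdac3 was compared with both exposed groups and SAHA with both controls. H4K16 acetylation was also profiled in the series by CUT&Tag, which is not analysed here.

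Deposited counts per library ran from 6.22 M to 35.6 M, and a floor of 3 counts in 1 library stood between 0.0773 and 0.890 CPM (counts scaled to library size with TMM factors). Floors cover counting error only. The in vivo PSMPs group is 1 sample here, because its 2 columns agree within counting noise, so it has no spread of its own and was assumed to vary like the others. The label oocyte fitted the data: of 14 oocyte markers, 14 had counts in every library except the second con-in vitro one, where 13 had. Their summed level was 10499.5 and 11467.5 CPM in con-in vitro, against 15894 to 41988.5 CPM elsewhere. The con-in vitro libraries also had the fewest counts, TMM factors of 0.542 and 0.572 against 0.905 to 1.57 elsewhere, and 11832 and 11640 genes with a count. Genes with a count numbered 17722 to 20957 in the exposed, SAHA and overexpressing libraries, against 12316 and 12843 in con. Of 20 cumulus and granulosa cell markers, 10 to 16 had counts in the exposed, SAHA and overexpressing libraries, against 4 or 5 in the controls. Their summed level was 44.4 to 163 CPM there and 32.8 to 100.0 CPM in the controls. Among them Fshr and Foxl2 reached at most 2.49 and 0.670 CPM, and Amh was at 0 in all but in vivo PSMPs, at 0.0258 CPM. Other markers were higher in in vivo PSMPs. Inha was at 59.4 CPM there and at most 1.53 CPM elsewhere, and Amhr2 at 4.77 CPM and at most 0.0651 CPM. Gja1 was at 13.4 CPM there and at 48.7 CPM in the first con-in vitro library. Cyp19a1 ran from 0 to 48.5 CPM and Nr5a2 from 4.79 to 39.2 CPM over the libraries. Hdac3 was at 336 and 228 CPM in PSMPs & OE-Hdac3 and at 7.17 to 37.4 CPM in all other libraries. Whether the libraries of 1 group stem from different animals is not stated, and p-values reflect only how these libraries vary, which may be technical. In pooled oocytes, fewer contributing cells and less RNA per cell cannot be told apart.

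The 34 genes covered a wide range of levels. Per gene length, as TPM (counts scaled to gene length and library, from the deposited counts and gene lengths), Cenpn was highest with a mean of 629 TPM over the 6 group means, above 98.7% of the tested genes. Dsn1 followed with 343 TPM and Cenph with 254 TPM, and then Cenps, Cenpx and Cenpv with 174, 164 and 156 TPM. Cenpl, whose protein pairs with that of Cenpn, was among the lowest at 6.75 TPM, with Oip5 at 4.31, Nsl1 at 1.45 and Cenpb at 0.143 TPM. Transcript levels thus differed widely between subunits of the same unit, in CENP-L-N from 629 TPM for Cenpn to 6.75 TPM for Cenpl, and in MIS12 from 343 TPM for Dsn1 to 1.45 TPM for Nsl1.

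**Figure D1:**
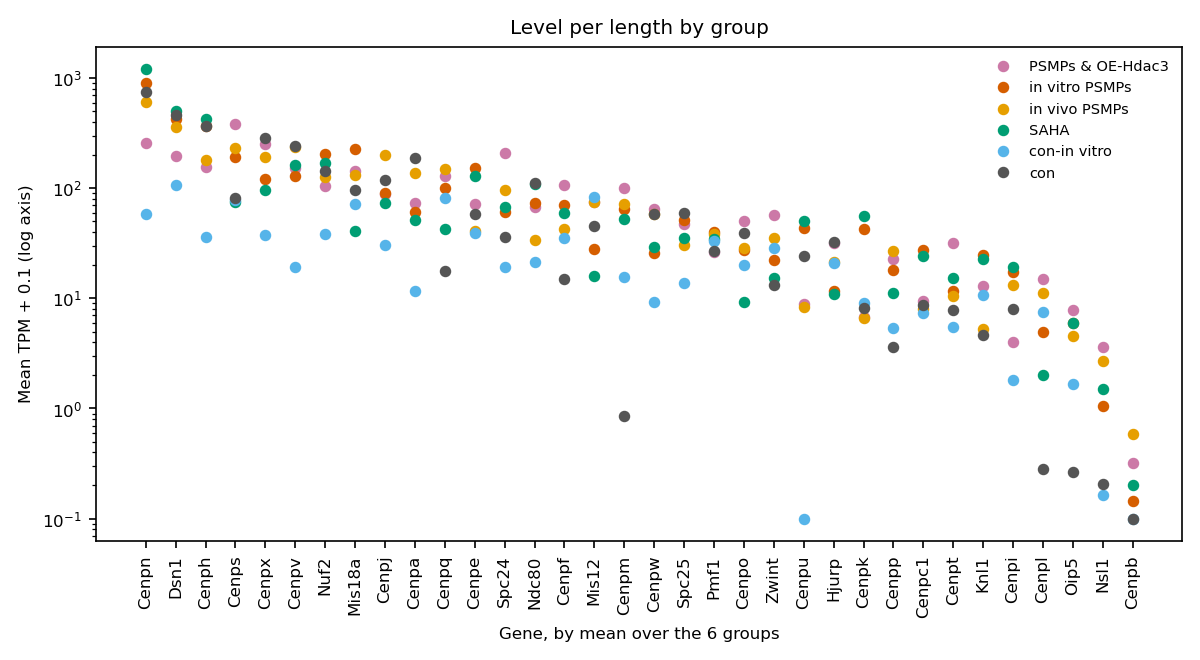
Mean TPM of each of the 34 genes in each of the 6 groups, with 0.1 added for the log axis and genes ordered by their mean over the groups. Cenpn leads at 629 TPM and Cenpb closes the order at 0.143 TPM, and the con-in vitro points lie low for many of the abundant genes.

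Summed over the 34 genes, con-in vitro was the lowest of the 6 groups, and in TPM it stood apart from the other 5. The sum was 3024 and 2913 TPM in PSMPs & OE-Hdac3, 3824 and 3472 TPM in in vitro PSMPs, 3220 TPM in in vivo PSMPs, 3725 and 3497 TPM in SAHA, 1106 and 809 TPM in con-in vitro, and 3354 and 3268 TPM in con. The 2 con-in vitro libraries were thus below every other library, and the other 9 lay close together in TPM. On the TMM-scaled level, where library composition is adjusted for, the summed level was 1989 and 1318 CPM in con-in vitro, against 2359 to 5661 CPM in the rest. The rest spread more widely there, and PSMPs & OE-Hdac3, at 2389 and 2359 CPM, was nearest to con-in vitro. At most 1 of the 34 genes was at 0 in any exposed, SAHA or overexpressing library, against 4 and 5 in con-in vitro and 5 and 2 in con.

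**Figure D2:**
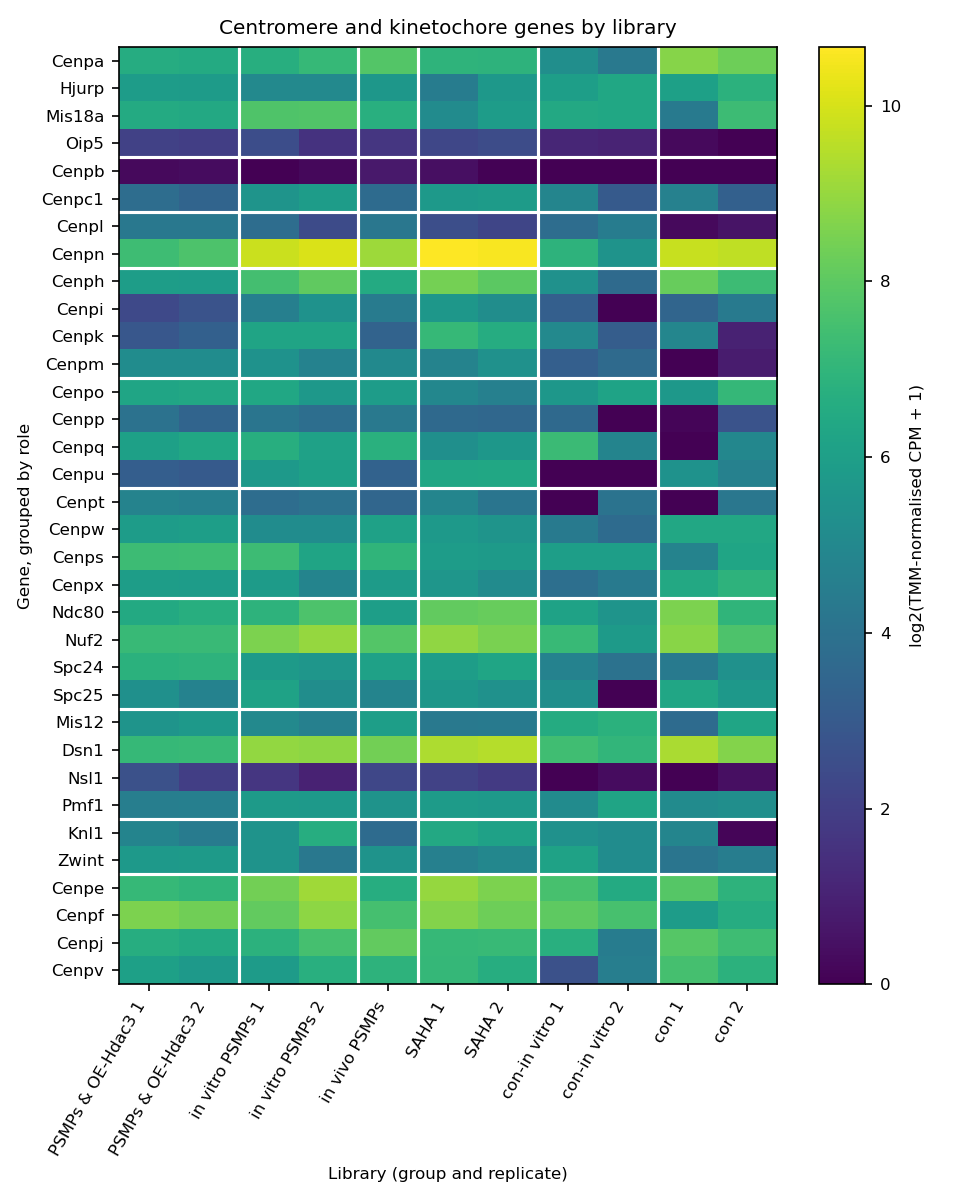
Level of each of the 34 genes in each of the 11 libraries, as log2 of the TMM-normalised CPM plus 1, with genes in rows by role and libraries in columns by group. The con-in vitro columns are darker for Cenpn, Cenph and Cenpu, and the con columns are darkest for Cenpl and Cenpm.

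Differences between groups were tested for all genes in 1 fit with edgeR's quasi-likelihood test and Benjamini-Hochberg adjustment, and a gene counts as higher or lower where its adjusted p was under 0.05. Fold changes are given on the log2 scale ± their standard error. The comparisons share libraries, con and con-in vitro in particular, so their results are not independent of each other. In in vitro PSMPs, 8 of the 34 genes rose against con-in vitro and none fell, where 15.4% of all tested genes passed, 8.57% upward and 6.78% downward. In SAHA against con-in vitro, 11 rose and none fell, where 19.8% of all tested genes passed, 11.7% upward and 8.14% downward. Mis12 was just short of a downward call there (edgeR adjusted p = 0.0502). It was called lower with DESeq2's Wald test or size factors, without the filter on low counts, with the in vivo PSMPs columns as 2 libraries, with only the groups compared, and without either con column. In in vitro PSMPs it was called lower with DESeq2's Wald test and without either con column. Of con-in vitro against con, 3 rose and 10 fell, where 25.1% passed, 14.7% upward and 10.5% downward. The shares of the 34 genes that passed were 23.5%, 32.4% and 38.2% in these comparisons, each above that of all tested genes. The 34 genes were not matched by level to all 16736 tested genes, of which 14668 had a count in a control. Whether the shares differ at equal level was not tested. The calls of Cenpn, Cenpu and Dsn1 in in vitro PSMPs, of Cenpn, Cenph, Cenpu and Dsn1 in SAHA, and of 9 genes in con-in vitro against con held whichever column was left out. The counts of the 34 moved to 3 to 16, 4 to 18 and 10 to 18 across the columns left out, the lowest without in vitro PSMPs replicate 2 (3), without SAHA replicate 1 (4) and without con-in vitro replicate 2 and several others (10), and the highest without con replicate 2 (16 and 18) or con replicate 1 (18). Over all tested genes the shares moved as well, to 6.55% to 32.6%, 6.64% to 38.2% and 15.6% to 39.1%.

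Fewer of the 34 genes passed in the other comparisons. In in vivo PSMPs, 2 of the 34 genes rose and none fell, a share of 5.88% beside 4.88% of all tested genes (4.59% upward and 0.287% downward), so that the share of these genes was near the background. In SAHA against con, 4 rose and 2 fell, a share of 17.6%, below the 27.0% of all tested genes (20.2% upward and 6.75% downward). In PSMPs & OE-Hdac3 against in vitro PSMPs, none rose and 3 fell, a share of 8.82% beside 4.83% of all tested genes (1.85% upward and 2.98% downward). In PSMPs & OE-Hdac3 against in vivo PSMPs, edgeR called 0 of the 34 genes and 0% of all tested genes. At an unadjusted p under 0.05 that comparison had 3 of the 34 and 2407 of all, and DESeq2's Wald test called 0 of the 34 and 870 of all. In all, 17 of the 34 genes passed in at least 1 comparison (50.0%), beside 7548 of all tested genes (45.1%), and 17 passed in none.

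The calls of these comparisons were lost when single libraries were left out, also libraries of groups outside the comparison, and those of all genes moved with them. Without any 1 of the SAHA, in vitro PSMPs or PSMPs & OE-Hdac3 columns, 0 of the 34 genes passed in in vivo PSMPs against con, where 0 or 1 of all tested genes passed. In PSMPs & OE-Hdac3 against in vitro PSMPs 0 of the 34 passed without any 1 of the same columns, and 0 to 265 of all (at most 1.58%). In SAHA against con 0 of the 34 passed without SAHA replicate 1 or 2, where 1.31% and 2.16% of all passed. A fit to only the groups compared called 0 of the 34 and 0 of all in in vivo PSMPs against con, and likewise in SAHA against con. Without con replicate 1 or 2 the counts of the 34 were 5 and 12 in in vivo PSMPs against con, beside 16.8% and 25.9% of all tested genes. They were 15 and 10 in SAHA against con, beside 39.8% and 38.1% of all. In PSMPs & OE-Hdac3 against in vitro PSMPs they were 9 and 10, beside 14.2% and 14.3% of all.

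**Figure D3:**
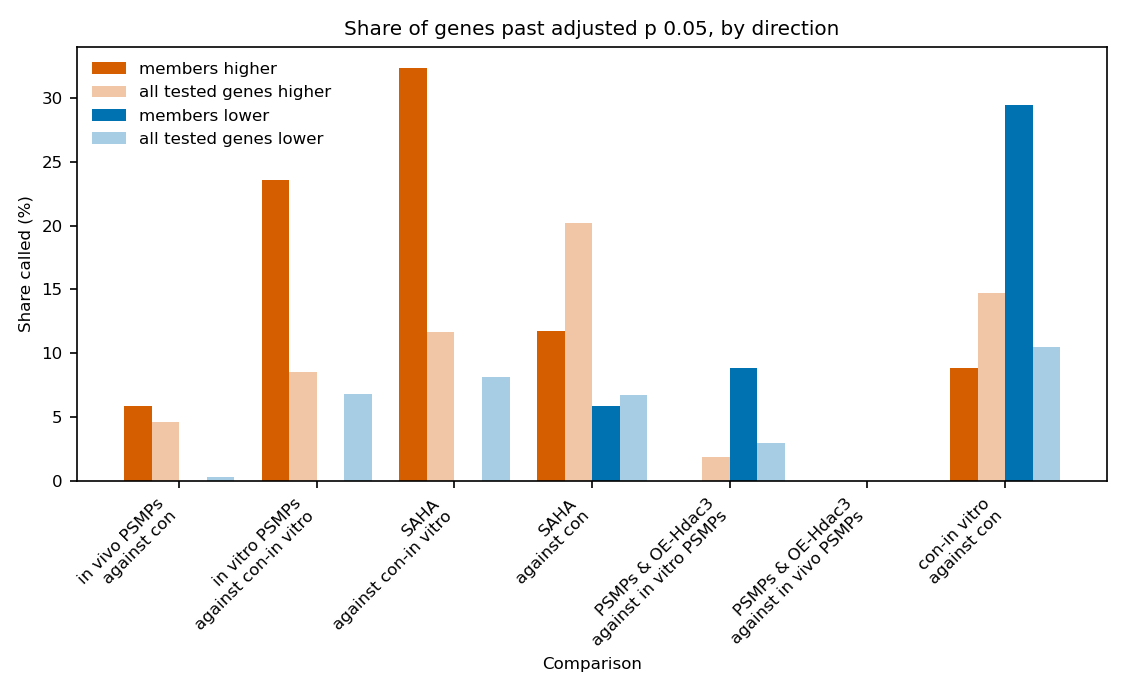
Share of the 34 genes (solid bars) and of all 16736 tested genes (pale bars) past an adjusted p of 0.05 in each of 7 comparisons, higher in orange and lower in blue. The share of the 34 genes that was higher is 32.4% in SAHA against con-in vitro, and both bars are at 0 in PSMPs & OE-Hdac3 against in vivo PSMPs.

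The median of the 34 log2 fold changes was 1.44 in in vitro PSMPs relative to con-in vitro, beside 0.71 over all tested genes, and 1.63 beside 0.66 in SAHA against con-in vitro. It was 0.77 beside 0.59 in SAHA against con, 0.03 beside 0.25 in in vivo PSMPs against con, and -0.33 beside 0 in con-in vitro against con. In PSMPs & OE-Hdac3 it was -0.32 beside 0.09 against in vitro PSMPs, and -0.15 beside 0.23 against in vivo PSMPs. The 0 over all genes in con-in vitro against con includes tested genes without a count in either control. A fit to only the controls, over the 14668 genes with a count there, gave a median of -0.52 for those of the 34 and -0.31 for all. Scaling by library totals shifted the median of all genes to 1.70, 1.37, 0.43, 0.58, -0.49, 0.60 and 0.53 in the same order of comparisons. The median of the 34 genes then turned to 0.18 and 0.15 in the PSMPs & OE-Hdac3 comparisons, still below that of all genes. With library totals 16 of the 34 rose in in vitro PSMPs, where of all genes 3473 were then higher and 758 lower, against 1435 higher and 1135 lower with TMM factors. In SAHA against con-in vitro 15 rose, where of all genes 3222 were higher and 922 lower, against 1950 higher and 1363 lower with TMM factors. In con-in vitro against con 1 rose and 11 fell. Over all genes that scaling turned the split in con-in vitro against con to 1872 higher and 3025 lower, against 2452 higher and 1753 lower with TMM factors.

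The transcript of CENP-A, the histone that defines the centromere, was lower in con-in vitro than anywhere else. Cenpa (chr5:30666777-30674830, mm10) had 97.0 and 89.8 CPM in PSMPs & OE-Hdac3, 101.4 and 141 CPM in in vitro PSMPs, 225 CPM in the in vivo PSMPs sample, 119.9 and 117 CPM in SAHA, 37.1 and 18.9 CPM in con-in vitro, and 423 and 321 CPM in con. Both con libraries were above all others, in vivo PSMPs came next, and the con-in vitro libraries did not overlap with any other group. Cenpa fell in con-in vitro against con (log2 fold change -3.73 ± 0.43, edgeR adjusted p = 0.000612) and in SAHA against con (-1.65 ± 0.40, edgeR adjusted p = 0.0185). It rose in in vitro PSMPs (2.12 ± 0.41, edgeR adjusted p = 0.00895) and in SAHA (2.08 ± 0.41, edgeR adjusted p = 0.00828) against con-in vitro. In in vivo PSMPs against con the difference of -0.72 ± 0.49 did not pass (edgeR adjusted p = 0.399).

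Transcripts of the factors that load CENP-A had levels ordered in other ways. Hjurp, the chaperone that delivers CENP-A, passed in no comparison and had 59.2 and 56.4 CPM in PSMPs & OE-Hdac3, 31.5 and 31.9 CPM in in vitro PSMPs, 49.1 CPM in the in vivo PSMPs sample, 21.0 and 50.6 CPM in SAHA, 61.4 and 81.4 CPM in con-in vitro, and 65.9 and 114 CPM in con. Its lowest values were in 1 SAHA library and in both in vitro PSMPs libraries. Mis18a, a subunit of the complex that licenses loading, also passed in none, and its con libraries lay far apart at 20.0 and 158 CPM. Oip5, its partner subunit Mis18 beta, was between 1.09 and 4.78 CPM in all libraries outside con and at 0.208 and 0 CPM in con. It was near the floor in both controls, with 4 counts in each con-in vitro library, where 3 counts stood at 0.890 and 0.820 CPM. Oip5 rose in SAHA, at 3.79 and 4.55 CPM, against con (5.28 ± 1.62, edgeR adjusted p = 0.0404), on 147 counts in SAHA and 6 in con. The strand setting of the counting is not given in the sources used here, and 9.67% of its exonic bases overlap Nusap1 on the opposite strand.

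The genes of the proteins that read centromeric DNA and the CENP-A nucleosome showed no call. Cenpb, which binds a motif of satellite DNA, was nearly silent: its highest level was 0.670 CPM, in in vivo PSMPs, and it was at 0 in con and con-in vitro. Cenpc1, the CENP-C gene, whose protein bridges the CENP-A nucleosome and the MIS12 complex, had 13.0 and 9.91 CPM in PSMPs & OE-Hdac3, 45.1 and 58.6 CPM in in vitro PSMPs, 12.4 CPM in the in vivo PSMPs sample, 51.5 and 57.3 CPM in SAHA, 27.6 and 7.10 CPM in con-in vitro, and 24.7 and 8.68 CPM in con. Values of in vitro PSMPs and SAHA were above all others, with differences from con-in vitro of 1.58 ± 0.76 and 1.65 ± 0.76 on the log2 scale that did not pass (edgeR adjusted p = 0.181 and 0.15).

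CENP-N binds the CENP-A nucleosome and pairs with CENP-L, and between the controls their genes moved in opposite directions. Cenpn (chr8:116921730-116941507, mm10) had 164 and 207 CPM in PSMPs & OE-Hdac3, 909 and 1074 CPM in in vitro PSMPs, 557 CPM in the in vivo PSMPs sample, 1625 and 1512 CPM in SAHA, 118 and 43.4 CPM in con-in vitro, and 879.7 and 792 CPM in con. SAHA was highest, in vitro PSMPs, con and in vivo PSMPs followed without overlap, and PSMPs & OE-Hdac3 and con-in vitro were lowest. Cenpn rose in in vitro PSMPs (log2 fold change 3.62 ± 0.47, edgeR adjusted p = 0.00142) and in SAHA (4.28 ± 0.49, edgeR adjusted p = 0.0006) against con-in vitro. It fell in con-in vitro against con (-3.37 ± 0.47, edgeR adjusted p = 0.00157) and in PSMPs & OE-Hdac3 against in vitro PSMPs (-2.42 ± 0.45, edgeR adjusted p = 0.0208). Against in vivo PSMPs, PSMPs & OE-Hdac3 differed by -1.58 ± 0.50, which did not pass (edgeR adjusted p = 0.239).

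Cenpl (chr1:161070713-161086724, mm10) had 18.5 and 18.6 CPM in PSMPs & OE-Hdac3, 13.1 and 4.44 CPM in in vitro PSMPs, 17.7 CPM in the in vivo PSMPs sample, 4.98 and 3.70 CPM in SAHA, 13.1 and 21.6 CPM in con-in vitro, and 0.208 and 0.464 CPM in con. Here con was the lowest group, with 6 and 18 counts per library, and con-in vitro was among the highest. Cenpl rose against con in in vivo PSMPs (5.68 ± 1.12, edgeR adjusted p = 0.0463), in SAHA (3.65 ± 0.97, edgeR adjusted p = 0.025) and in con-in vitro (5.65 ± 1.06, edgeR adjusted p = 0.00609). More genes had a count in in vivo PSMPs and SAHA than in con, and fewer had in con-in vitro. The summed cumulus and granulosa markers were at 163 CPM in the in vivo PSMPs sample, 77.7 and 85.4 CPM in SAHA, 100.0 and 32.8 CPM in con-in vitro, and 42.1 and 66.0 CPM in con, and their part in the result was not tested.

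**Figure D4:**
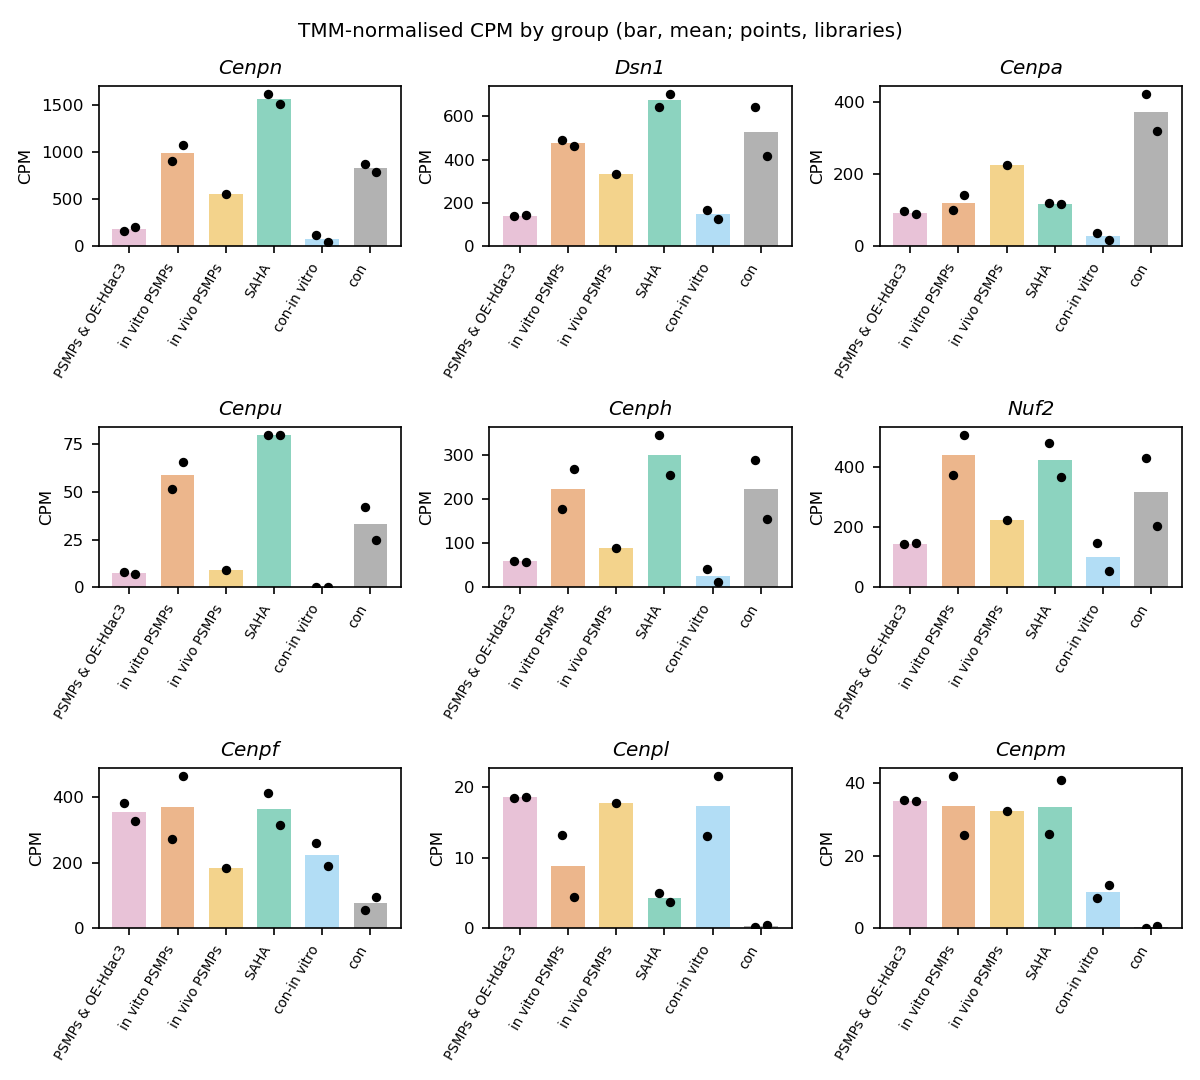
TMM-normalised CPM of 9 genes in the 6 groups, with bars at the group mean and a point for each library. Cenpn, Dsn1, Cenpa, Cenpu, Cenph and Nuf2 are low in con-in vitro, where Cenpu is at 0, while Cenpl, Cenpm and Cenpf are lowest in con.

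The upstream sequences of 3 genes called in 4 comparisons, and of Cenpl, which moved the other way from Cenpn between the controls, are shown with the letters searched for in capitals. RefSeq promoter sequence (GRCm38.p6) was matched for 32 of the 34 genes, and the 200 bases before each RefSeq start were searched on both strands for the CCAAT box (CCAAT or ATTGG) and the cell cycle homology region, or CHR (TTTGAA or TTCAAA), which is known from promoters of cell cycle genes. Capitals mark these letters, each stretch runs 5′ to 3′ on the gene's strand, and each ends before the first base of the gene model in the count table.
Cenpn, chr8:116921530-116921729, plus strand: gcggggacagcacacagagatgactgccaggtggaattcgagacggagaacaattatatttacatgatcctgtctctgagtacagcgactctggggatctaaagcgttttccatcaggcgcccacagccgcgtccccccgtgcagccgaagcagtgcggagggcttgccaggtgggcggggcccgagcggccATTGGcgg
Dsn1, chr2:157007155-157007325, minus strand: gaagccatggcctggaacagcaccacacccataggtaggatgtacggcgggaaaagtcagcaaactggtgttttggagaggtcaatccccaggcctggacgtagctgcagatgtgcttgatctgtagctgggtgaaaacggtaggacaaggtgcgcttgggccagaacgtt
Cenpu, chr8:46551828-46552027, plus strand: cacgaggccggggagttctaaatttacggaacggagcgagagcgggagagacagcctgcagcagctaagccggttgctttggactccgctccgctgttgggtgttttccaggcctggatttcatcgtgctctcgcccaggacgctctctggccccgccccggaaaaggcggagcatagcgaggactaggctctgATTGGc
Cenpl, chr1:161070517-161070712, plus strand: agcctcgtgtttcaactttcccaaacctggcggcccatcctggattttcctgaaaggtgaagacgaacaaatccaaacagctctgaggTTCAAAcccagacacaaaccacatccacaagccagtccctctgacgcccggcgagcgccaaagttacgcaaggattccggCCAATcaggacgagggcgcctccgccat
The stretch of Cenpl holds both motifs, which do not overlap, those of Cenpn and Cenpu hold the CCAAT letters near their end, and that of Dsn1 holds neither.

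Of the 32 genes, 16 (50.0%) held the CCAAT letters, against 30.0% of 27020 genes with a window of the same length. The 27020 were taken whether or not they passed the filter on low counts, which the 32 all passed. The CHR letters stood in 4 of 32 (12.5%), against 12.7% of all, and both stood in 3, namely Cenpl, Cenpn and Cenpw (9.38%, against 3.83%). The match of Cenpn to the CHR letters lies outside the stretch printed. A match is a description of the letters and not a binding site. Genes called in 4 comparisons were found with CCAAT letters (Cenpa, Cenpn, Cenpu) and without (Dsn1).

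CENP-H, CENP-I, CENP-K and CENP-M form the central unit of the CCAN. Cenph had 60.9 and 58.7 CPM in PSMPs & OE-Hdac3, 177 and 269 CPM in in vitro PSMPs, 89.97 CPM in the in vivo PSMPs sample, 346 and 254 CPM in SAHA, 41.5 and 12.02 CPM in con-in vitro, and 289 and 156 CPM in con. The con-in vitro libraries were below all others, and in vitro PSMPs and SAHA overlapped with con. Cenph rose in in vitro PSMPs (3.06 ± 0.61, edgeR adjusted p = 0.0106) and in SAHA (3.49 ± 0.62, edgeR adjusted p = 0.0053) against con-in vitro, and fell in con-in vitro against con (-3.06 ± 0.61, edgeR adjusted p = 0.00782).

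Cenpm went the other way between the controls. It had 35.3 and 35.01 CPM in PSMPs & OE-Hdac3, 42.1 and 25.6 CPM in in vitro PSMPs, 32.3 CPM in the in vivo PSMPs sample, 26.0 and 40.8 CPM in SAHA, 8.31 and 12.02 CPM in con-in vitro, and 0 and 0.773 CPM in con. Its con libraries, with 0 and 30 counts, were below every other library. Cenpm rose against con in in vivo PSMPs (6.33 ± 1.49, edgeR adjusted p = 0.0488), in SAHA (6.38 ± 1.43, edgeR adjusted p = 0.0158) and in con-in vitro (4.66 ± 1.33, edgeR adjusted p = 0.0334). The last was lost in 10 of 19 alternative settings, among them library totals and leaving out either con-in vitro column. The in vivo PSMPs call was lost in 8 settings and the SAHA call in 3. Cenpi and Cenpk passed in no comparison. Cenpk was highest in SAHA, at 139 and 95.1 CPM, and the con libraries were at 29.0 and 1.03 CPM.

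CENP-U, with CENP-O, CENP-P and CENP-Q, forms the unit that receives the kinase PLK1. Cenpu (chr8:46552028-46580007, mm10) had 8.20 and 7.002 CPM in PSMPs & OE-Hdac3, 51.4 and 65.7 CPM in in vitro PSMPs, 9.13 CPM in the in vivo PSMPs sample, 79.4 and 79.8 CPM in SAHA, 0 and 0 CPM in con-in vitro, and 41.8 and 24.8 CPM in con. No count at all fell on it in con-in vitro, where 3 counts over the group would be 0.427 CPM, and PSMPs & OE-Hdac3 and in vivo PSMPs were well below in vitro PSMPs, SAHA and con. Cenpu was at least 137-fold higher in in vitro PSMPs (edgeR adjusted p = 0.000335) and at least 186-fold higher in SAHA (edgeR adjusted p = 0.000272) than in con-in vitro. Set against con, it was at least 78.1-fold lower in con-in vitro (edgeR adjusted p = 0.000421), each bound being taken against 3 counts over the con-in vitro group. It fell in PSMPs & OE-Hdac3 against in vitro PSMPs (-2.94 ± 0.55, edgeR adjusted p = 0.0241), while the difference of in vivo PSMPs from con, -1.87 ± 0.69, did not pass (edgeR adjusted p = 0.125). The strand setting of the counting is not given, and 26.7% of the exonic bases of Cenpu overlap Primpol on the opposite strand.

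Within the same unit Cenpo, whose protein pairs with CENP-P, had 76.8 and 83.3 CPM in PSMPs & OE-Hdac3, 80.7 and 49.8 CPM in in vitro PSMPs, 58.3 CPM in the in vivo PSMPs sample, 29.5 and 23.9 CPM in SAHA, 48.4 and 71.0 CPM in con-in vitro, and 50.5 and 136 CPM in con. The SAHA libraries were below all others. Cenpo fell in SAHA against con (-1.81 ± 0.54, edgeR adjusted p = 0.0378), and 19.0% of its exonic bases overlap Adcy3 on the opposite strand. Cenpp and Cenpq passed in no comparison, and both differed over 4-fold between the 2 libraries of con and between those of con-in vitro.

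In the histone-fold unit CENP-T-W-S-X, Cenpw and Cenpx were low in con-in vitro. Cenpw, the partner of CENP-T, had 57.9 and 61.6 CPM in PSMPs & OE-Hdac3, 35.7 and 35.5 CPM in in vitro PSMPs, 68.0 CPM in the in vivo PSMPs sample, 54.1 and 44.4 CPM in SAHA, 19.9 and 12.3 CPM in con-in vitro, and 83.5 and 83.2 CPM in con. It rose in SAHA against con-in vitro (1.61 ± 0.43, edgeR adjusted p = 0.0293) and fell in con-in vitro against con (-2.37 ± 0.44, edgeR adjusted p = 0.00544). Cenpx, the partner of CENP-S, had 60.2 and 57.7 CPM in PSMPs & OE-Hdac3, 57.0 and 27.1 CPM in in vitro PSMPs, 57.6 CPM in the in vivo PSMPs sample, 47.1 and 34.8 CPM in SAHA, 13.9 and 19.4 CPM in con-in vitro, and 86.5 and 119 CPM in con. The con-in vitro libraries were the lowest for both genes, and Cenpx fell there against con (-2.62 ± 0.51, edgeR adjusted p = 0.00721). Its differences of 1.33 ± 0.49 in in vitro PSMPs and 1.30 ± 0.49 in SAHA against con-in vitro did not pass. Cenps, the fourth most abundant of the 34 genes per length, passed in none and ran from 26.1 to 162 CPM. Cenpt, whose protein recruits NDC80, was at 0 in 1 library of each control, and at 15.6 CPM in the other con-in vitro library and 17.7 CPM in the other con library.

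The NDC80 complex makes the load-bearing contact with microtubules, and its 4 subunit genes had their lowest group mean in con-in vitro, Spc25 with 1 library at 0. Nuf2, which with Ndc80 forms the microtubule-binding head, had 144 and 147 CPM in PSMPs & OE-Hdac3, 373 and 508 CPM in in vitro PSMPs, 223 CPM in the in vivo PSMPs sample, 479 and 369 CPM in SAHA, 147 and 54.9 CPM in con-in vitro, and 429.7 and 203 CPM in con. In vitro PSMPs and SAHA were above both con-in vitro libraries, and con spanned a wide range. Nuf2 rose in in vitro PSMPs (2.13 ± 0.53, edgeR adjusted p = 0.0282) and in SAHA (2.07 ± 0.53, edgeR adjusted p = 0.0268) against con-in vitro, and fell in con-in vitro against con (-1.65 ± 0.52, edgeR adjusted p = 0.0469). The last was lost in 11 of 19 alternative settings, among them DESeq2's size factors and a fit to only the controls. The calls in in vitro PSMPs and SAHA were lost in 6 settings each.

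Ndc80 had 87.2 and 102 CPM in PSMPs & OE-Hdac3, 116 and 208 CPM in in vitro PSMPs, 61.4 CPM in the in vivo PSMPs sample, 274 and 290.0 CPM in SAHA, 70.3 and 44.8 CPM in con-in vitro, and 375 and 125 CPM in con. The 2 SAHA libraries lay between the 2 con libraries, and con-in vitro did not overlap with SAHA. Ndc80 rose in SAHA against con-in vitro (2.29 ± 0.55, edgeR adjusted p = 0.0213) and fell in con-in vitro against con (-2.12 ± 0.55, edgeR adjusted p = 0.0244). Spc24, which with Spc25 docks the complex on the kinetochore, had 112 and 119 CPM in PSMPs & OE-Hdac3, 55.8 and 47.7 CPM in in vitro PSMPs, 68.4 CPM in the in vivo PSMPs sample, 60.1 and 76.5 CPM in SAHA, 25.8 and 15.0 CPM in con-in vitro, and 20.0 and 40.9 CPM in con. Unlike its partners, it was highest in PSMPs & OE-Hdac3, where the difference from in vitro PSMPs, 1.16 ± 0.48, did not pass (edgeR adjusted p = 0.222). Spc24 rose in SAHA against con-in vitro (1.74 ± 0.49, edgeR adjusted p = 0.0382).

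The MIS12 complex links the inner kinetochore to NDC80, and Dsn1 encodes its most abundant subunit by transcript level per length. Dsn1 (chr2:156995265-157007154, mm10) had 139.8 and 146 CPM in PSMPs & OE-Hdac3, 491 and 462 CPM in in vitro PSMPs, 336 CPM in the in vivo PSMPs sample, 645 and 705 CPM in SAHA, 169 and 129 CPM in con-in vitro, and 643 and 415 CPM in con. PSMPs & OE-Hdac3 and con-in vitro lay together at the bottom, and in vivo PSMPs, con, in vitro PSMPs and SAHA lay above both. Dsn1 rose in in vitro PSMPs (1.68 ± 0.32, edgeR adjusted p = 0.00898) and in SAHA (2.18 ± 0.33, edgeR adjusted p = 0.00226) against con-in vitro. It fell in con-in vitro against con (-1.83 ± 0.33, edgeR adjusted p = 0.00471) and in PSMPs & OE-Hdac3 against in vitro PSMPs (-1.74 ± 0.32, edgeR adjusted p = 0.0207). The difference of PSMPs & OE-Hdac3 from in vivo PSMPs, -1.23 ± 0.37, did not pass (edgeR adjusted p = 0.225).

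The other MIS12 subunits passed in no comparison. Mis12 ran against Dsn1 in order, with 45.4 and 53.4 CPM in PSMPs & OE-Hdac3, 31.3 and 24.1 CPM in in vitro PSMPs, 62.1 CPM in the in vivo PSMPs sample, 18.6 and 19.4 CPM in SAHA, 93.5 and 109.8 CPM in con-in vitro, and 12.1 and 75.9 CPM in con. Its con-in vitro libraries were the highest of all, and the differences of in vitro PSMPs, -1.88 ± 0.73, and of SAHA, -2.42 ± 0.74, from con-in vitro did not pass (edgeR adjusted p = 0.112 and 0.0502). Pmf1 stayed within 22.6 to 74.9 CPM in the 11 libraries, and Nsl1 did not exceed 5.21 CPM. Of the KNL1 complex, Knl1, which scaffolds the spindle checkpoint, and its binding partner Zwint also passed in none. Knl1 had 27.4 and 20.5 CPM in PSMPs & OE-Hdac3, 44.0 and 100.5 CPM in in vitro PSMPs, 12.3 CPM in the in vivo PSMPs sample, 86.6 and 68.6 CPM in SAHA, 40.7 and 34.97 CPM in con-in vitro, and 28.1 and 0.103 CPM in con, so that 1 con library held almost none of it.

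Among the outer proteins that carry a CENP name, Cenpe and Cenpf are corona proteins, a kinesin and a large coiled-coil protein. Cenpe had 142 and 126 CPM in PSMPs & OE-Hdac3, 333 and 565 CPM in in vitro PSMPs, 98.4 CPM in the in vivo PSMPs sample, 505 and 378 CPM in SAHA, 187 and 91.5 CPM in con-in vitro, and 232 and 116 CPM in con. It rose in in vitro PSMPs (1.69 ± 0.49, edgeR adjusted p = 0.0479) and in SAHA (1.66 ± 0.49, edgeR adjusted p = 0.0432) against con-in vitro, and con overlapped with con-in vitro. These calls were lost in 10 and 8 of 19 alternative settings. Cenpf had 382 and 327 CPM in PSMPs & OE-Hdac3, 274 and 466 CPM in in vitro PSMPs, 184 CPM in the in vivo PSMPs sample, 414 and 317 CPM in SAHA, 261 and 189.6 CPM in con-in vitro, and 57.8 and 95.5 CPM in con. Both con libraries were below every other library, as for Cenpl and Cenpm. Cenpf rose against con in SAHA (2.25 ± 0.41, edgeR adjusted p = 0.00994) and in con-in vitro (1.56 ± 0.40, edgeR adjusted p = 0.024). The SAHA call was lost in 3 of 19 alternative settings and the con-in vitro call in 6, among them library totals. Cenpv had 65.2 and 53.4 CPM in PSMPs & OE-Hdac3, 56.2 and 105 CPM in in vitro PSMPs, 118 CPM in the in vivo PSMPs sample, 137 and 98.8 CPM in SAHA, 5.34 and 22.7 CPM in con-in vitro, and 182 and 115 CPM in con. It rose in in vitro PSMPs (2.52 ± 0.66, edgeR adjusted p = 0.0349) and in SAHA (3.07 ± 0.68, edgeR adjusted p = 0.0149) against con-in vitro and fell in con-in vitro against con (-3.40 ± 0.69, edgeR adjusted p = 0.00841). Cenpj, which acts at centrioles rather than centromeres, passed in none and ran from 21.0 to 271 CPM.

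**Figure D5:**
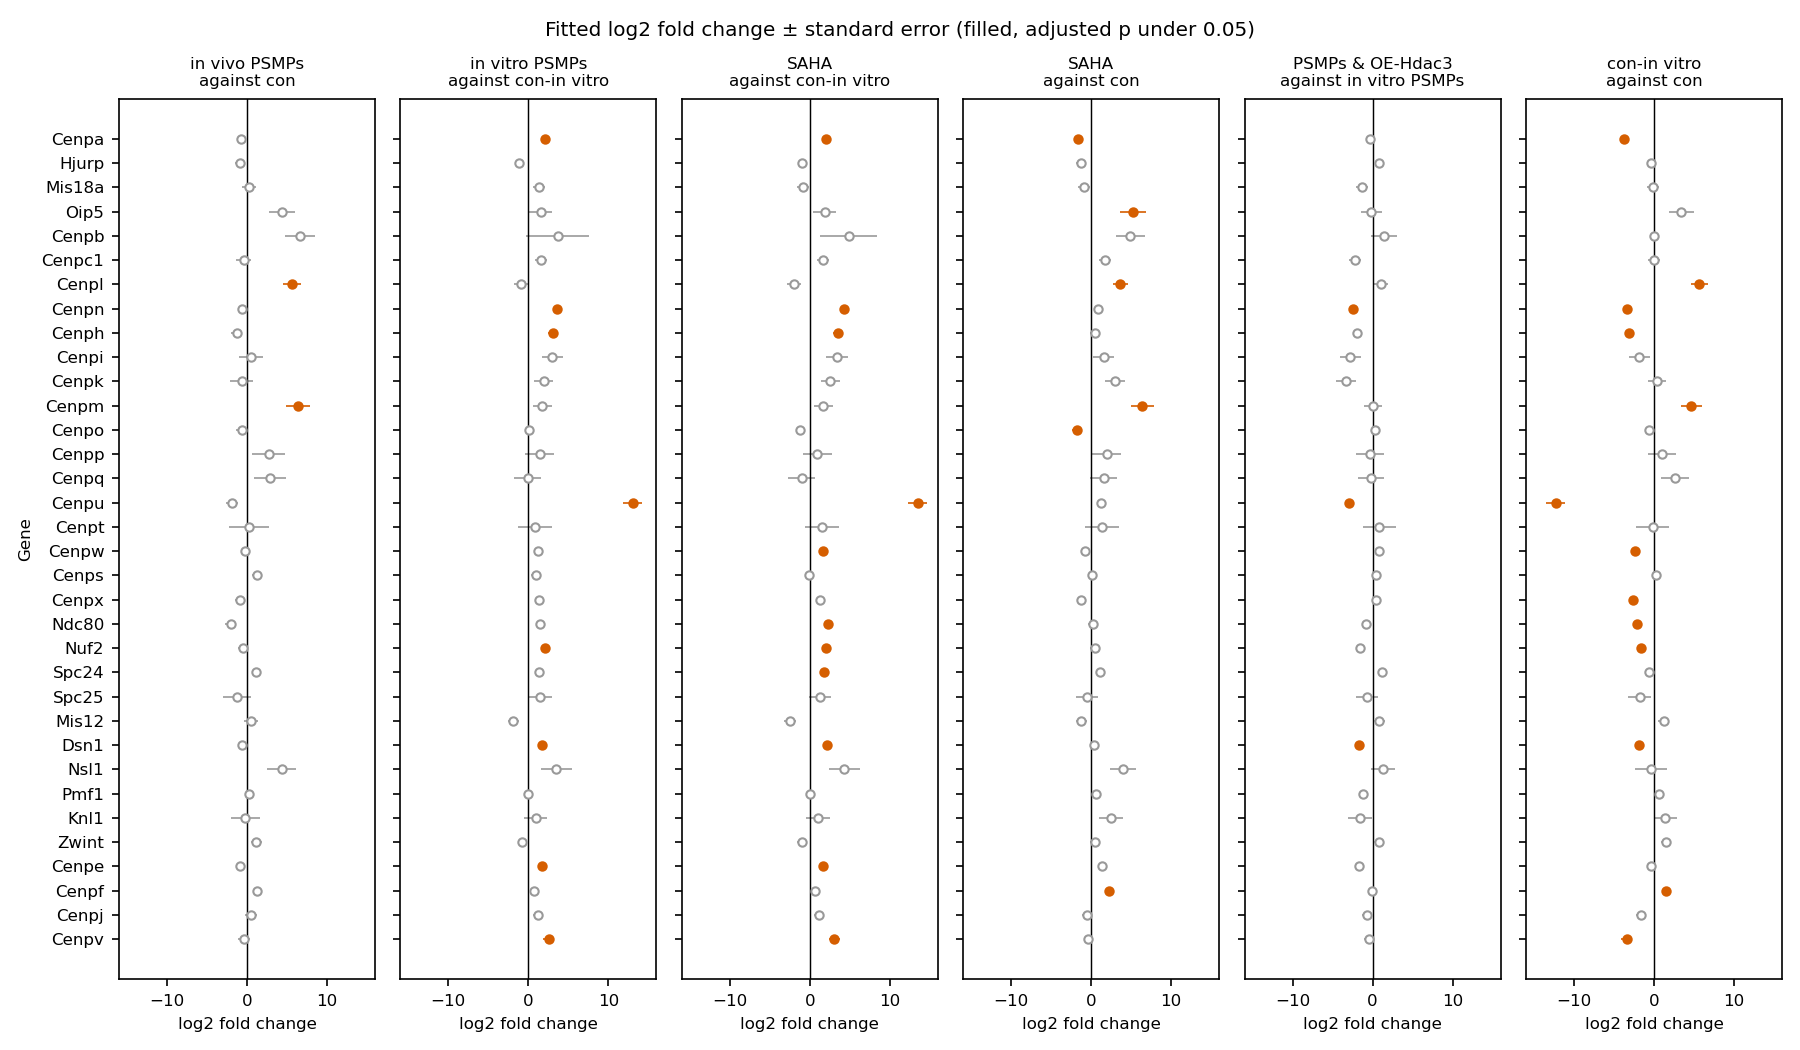
Fitted log2 fold change with its standard error for the 34 genes in 6 of the comparisons, filled orange where the adjusted p was under 0.05 and open grey otherwise. All filled points lie right of 0 in the comparisons of in vitro PSMPs and SAHA with con-in vitro, and 10 of 13 lie left of 0 in con-in vitro against con. The far points of Cenpu come from a group at 0 and depend on the fit's prior.

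Across the comparisons, Cenpa, Cenpn, Cenpu and Dsn1 passed in 4 comparisons, and Cenph, Nuf2 and Cenpv in 3: each of these 7 rose in in vitro PSMPs and in SAHA against con-in vitro and fell in con-in vitro against con. The con-in vitro libraries enter all 3 comparisons. Cenpl and Cenpm passed in 3 comparisons with con, all upward, and con enters each of those.

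How far libraries of 1 group differed bears on these calls. Folds between libraries were taken here after adding 1 CPM to each value, which shrinks those of low levels. In con, 7 of the 34 genes then differed over 4-fold between the 2 libraries (20.6%, beside 18.3% of all tested genes), namely Mis18a, Cenpk, Cenpp, Cenpq, Cenpt, Mis12 and Knl1. In con-in vitro, 6 did (17.6%, beside 15.2%), namely Cenpi, Cenpp, Cenpq, Cenpt, Spc25 and Cenpj. None did in PSMPs & OE-Hdac3, in vitro PSMPs or SAHA. None of these 10 genes passed in any comparison. That split depends on the added 1. Without it Cenpv, at 5.34 and 22.7 CPM in con-in vitro, also differed over 4-fold, and Cenpv passed in 3 comparisons. Cenpm, at 0 and 0.773 CPM in con, passed in 3 as well. Cenpb, which passed in none, was at 0.339 and 0.0569 CPM in SAHA.

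The effect of exposure inside the animal was set against the effect outside it, each relative to its own control. The difference of the log2 fold changes passed for 7 of the 34 genes, beside 11.3% of all tested genes. It was negative for Cenpa, Cenpn, Cenph, Cenpu, Ndc80 and Dsn1, whose changes in in vivo PSMPs against con were all below 0 and did not pass. It was positive for Cenpl, which rose in in vivo PSMPs against con and did not pass in in vitro PSMPs against con-in vitro (-0.98 ± 0.88). Between them, the 2 controls differ in each of these 7 genes, as given above, and their part in this difference cannot be told apart from the exposures.

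Genes that work with the kinetochore were counted in the same way from lists outside the 34. A fit to only the groups compared called 0 of all tested genes in SAHA against con, so calls of these lists were lost there. Their calls in PSMPs & OE-Hdac3 against in vitro PSMPs were lost when 1 PSMPs & OE-Hdac3 column was left out, where 0 of all passed. Of 25 tested kinetochore and centromere partners, 1 rose and 1 fell in in vitro PSMPs against con-in vitro, 3 rose and 2 fell in SAHA against con-in vitro, and 3 rose and 3 fell in SAHA against con. Relative to in vitro PSMPs, 1 rose and 3 fell in PSMPs & OE-Hdac3, and in con-in vitro against con 5 rose and 3 fell. None passed in in vivo PSMPs against con, where 4.88% of all tested genes passed. Of all tested genes, 15.4% passed in in vitro PSMPs and 19.8% in SAHA against con-in vitro. In SAHA against con 27.0% passed, in PSMPs & OE-Hdac3 against in vitro PSMPs 4.83%, and in con-in vitro against con 25.1%. No list was tested against these shares. Clasp2, a microtubule-stabilising protein of the outer kinetochore, had 137 and 75.0 CPM in PSMPs & OE-Hdac3, 14.9 and 27.8 CPM in in vitro PSMPs, 37.7 CPM in the in vivo PSMPs sample, 32.3 and 22.9 CPM in SAHA, 4293 and 5029 CPM in con-in vitro, and 38.7 and 25.4 CPM in con. The con-in vitro libraries were far above all others, and Clasp2 rose there against con (7.19 ± 0.56, edgeR adjusted p = 0.000113). Supt16, a subunit of the histone chaperone FACT, rose in SAHA against con (4.61 ± 0.55, edgeR adjusted p = 0.0029), at 131 and 97.4 CPM in SAHA and 3.54 and 5.82 CPM in con. It fell in PSMPs & OE-Hdac3, at 15.6 and 13.1 CPM, against in vitro PSMPs, at 87.9 and 133 CPM (-2.94 ± 0.51, edgeR adjusted p = 0.0174). Clasp1 rose in con-in vitro against con (3.47 ± 0.69, edgeR adjusted p = 0.00793), and Bod1, a kinetochore phosphatase regulator, fell in SAHA against con (-2.21 ± 0.41, edgeR adjusted p = 0.0101). Meikin, the meiosis-specific kinetochore protein, and Sgo2a, the shugoshin that protects centromeric cohesin in oocytes, passed in no comparison.

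Meikin had 8.46 and 10.0 CPM in PSMPs & OE-Hdac3, 8.19 and 3.88 CPM in in vitro PSMPs, 10.5 CPM in the in vivo PSMPs sample, 0.905 and 1.19 CPM in SAHA, 16.02 and 4.64 CPM in con-in vitro, and 0 and 15.5 CPM in con. Sgo2a had 18.4 and 16.5 CPM in PSMPs & OE-Hdac3, 28.4 and 58.2 CPM in in vitro PSMPs, 97.0 CPM in the in vivo PSMPs sample, 53.3 and 43.2 CPM in SAHA, 123 and 22.4 CPM in con-in vitro, and 40.0 and 53.2 CPM in con. The controls spanned most of the range for Meikin, and the con-in vitro libraries did so for Sgo2a.

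Of 8 spindle checkpoint genes, 3 rose and none fell in in vitro PSMPs against con-in vitro, 3 rose and 1 fell in SAHA against con-in vitro, and 2 rose and 3 fell in con-in vitro against con. A single gene fell in each of 2 comparisons, PSMPs & OE-Hdac3 against in vitro PSMPs and SAHA against con. Of all tested genes 15.4%, 19.8%, 25.1%, 4.83% and 27.0% passed in these comparisons, in the order given. Mad2l1, the MAD2 gene, whose protein restrains the anaphase-promoting complex, had 139.6 and 151 CPM in PSMPs & OE-Hdac3, 802 and 1209 CPM in in vitro PSMPs, 309 CPM in the in vivo PSMPs sample, 1501 and 1229 CPM in SAHA, 207 and 98.4 CPM in con-in vitro, and 916 and 656 CPM in con. As for Cenpn, PSMPs & OE-Hdac3 and con-in vitro were lowest. Mad2l1 rose in SAHA against con-in vitro (3.16 ± 0.44, edgeR adjusted p = 0.00149) and fell in PSMPs & OE-Hdac3 against in vitro PSMPs (-2.79 ± 0.43, edgeR adjusted p = 0.014). Mad2l1bp, which helps to disassemble checkpoint complexes, and Bub3, which docks them on KNL1, also rose in in vitro PSMPs and SAHA against con-in vitro, with log2 fold changes from 1.24 ± 0.34 to 3.13 ± 0.63. Ttk, the MPS1 kinase that starts checkpoint signalling, fell in SAHA against con-in vitro (-2.69 ± 0.62, edgeR adjusted p = 0.0177). Bub1b, the BUBR1 gene, fell in SAHA, at 786 and 1324 CPM, against con, at 2396 and 2271 CPM (-1.15 ± 0.36, edgeR adjusted p = 0.046).

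The chromosomal passenger complex corrects faulty attachments. Of its 6 genes, 3 rose and 1 fell in in vitro PSMPs against con-in vitro, 2 rose and 1 fell in SAHA against con-in vitro, and none rose and 3 fell in SAHA against con. Further, 1 rose in PSMPs & OE-Hdac3 against in vitro PSMPs, and 2 fell in con-in vitro against con. Of all tested genes 15.4%, 19.8%, 27.0%, 4.83% and 25.1% passed in these comparisons, in the order given. Aurkc, its germ cell kinase, had 112 and 79.8 CPM in PSMPs & OE-Hdac3, 145 and 165 CPM in in vitro PSMPs, 189 CPM in the in vivo PSMPs sample, 189.8 and 186 CPM in SAHA, 16.6 and 21.0 CPM in con-in vitro, and 453 and 557 CPM in con. As with Cenpa, both con libraries were the highest and both con-in vitro libraries the lowest. Aurkc fell in con-in vitro (-4.75 ± 0.37, edgeR adjusted p = 0.000108) and in SAHA (-1.43 ± 0.32, edgeR adjusted p = 0.0154) against con. Cdca8, the borealin gene, fell in con-in vitro against con (-2.62 ± 0.33, edgeR adjusted p = 0.00093), and Birc5, the survivin gene, rose in in vitro PSMPs against con-in vitro (2.29 ± 0.49, edgeR adjusted p = 0.0148). Incenp, the scaffold, fell in SAHA against con (-3.13 ± 0.59, edgeR adjusted p = 0.011) and was higher in PSMPs & OE-Hdac3, at 172 and 167 CPM, than in in vitro PSMPs, at 19.5 and 37.9 CPM (2.56 ± 0.58, edgeR adjusted p = 0.0408).

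Of 12 tested cohesin genes, 2 rose in in vivo PSMPs against con, 1 rose and 2 fell in in vitro PSMPs against con-in vitro, 2 rose and 3 fell in SAHA against con-in vitro, and 4 rose and 1 fell in SAHA against con. In PSMPs & OE-Hdac3 against in vitro PSMPs 1 fell, and in con-in vitro against con 3 rose. Of all tested genes 4.88%, 15.4%, 19.8%, 27.0%, 4.83% and 25.1% passed in these comparisons, in the order given. Smc1b, the meiotic SMC1, had 25.8 and 24.7 CPM in PSMPs & OE-Hdac3, 32.1 and 38.9 CPM in in vitro PSMPs, 18.6 CPM in the in vivo PSMPs sample, 43.9 and 34.0 CPM in SAHA, 36.2 and 21.9 CPM in con-in vitro, and 0 and 0.0515 CPM in con. It rose against con in in vivo PSMPs (edgeR adjusted p = 0.0233), in SAHA (edgeR adjusted p = 0.00183) and in con-in vitro (edgeR adjusted p = 0.000427). The in vivo PSMPs calls, of Smc1b and Stag3, were lost without any 1 SAHA or PSMPs & OE-Hdac3 column, where 0 of all tested genes passed in that comparison. Con held 2 counts of it in all, so that the ratio to con was 1317 in SAHA, with an exact 95% counting interval of 364 to 10890.0. Wapl, which releases cohesin, was at 16190 and 13164 CPM in con-in vitro and at 591 and 342 CPM in con, and rose there (4.98 ± 0.50, edgeR adjusted p = 0.000341). Rad21 fell in SAHA against con (-3.10 ± 0.50, edgeR adjusted p = 0.00713), and Nipbl, the cohesin loader, rose in con-in vitro against con (2.94 ± 0.59, edgeR adjusted p = 0.00848). Rec8, the meiotic kleisin, was at 0 in all 11 libraries and was not tested.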

How the data were processed

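RNA was sequenced in 12 libraries of 5 mouse oocytes each, and the values used are the raw counts per gene that the authors deposited for 55401 genes, with a gene length in bases. The submitters' processing notes name the build mm10 and the tools Bowtie2 2.2.5, deepTools 3.5.1, fastp 0.12.4, DESeq2, featureCounts, HISAT2, Picard and SAMtools, without the role of each or the strand setting. Columns were assigned to groups by their labels.

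Depth was 6.22 M to 35.6 M counts per column. The 2 in vivo PSMPs columns agree within counting noise (chi-square per degree of freedom 0.444, and 16.5 to 384 in other groups) and entered as 1 library, their rounded mean. In R 4.3.3 with edgeR 4.0.16, genes were filtered at a minimum count of 10 (16736 tested), scaled by TMM, and fitted with 1 coefficient per group and 5 residual degrees of freedom. Contrasts were tested two-sided with the robust quasi-likelihood F test, with Benjamini-Hochberg adjustment over all tested genes at 0.05. A standard error is the fold change divided by the root of its F statistic. Genes at 0 in a group got a bound against 3 counts over the group. TPM was computed from deposited counts and lengths.

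The 34 genes, the lists and the tests were chosen with earlier results of these data known. Genes described with all library values were those called in any comparison, most calls first, and the most abundant per role. Up to 4 genes per list were named by smallest adjusted p, with Meikin, Sgo2a, Bub1b and Aurkc, and some members were named beyond this rule after their values were seen. Of the listed genes only Cenpc2 was not found in the table.

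On simulated counts for in vitro PSMPs relative to con-in vitro, 15 of 100 genes changed 4-fold and 69 of 100 changed 16-fold were called, with 0 of 16536 unchanged genes. For in vivo PSMPs against con these were 5 and 53 of 100, with 4 unchanged genes called. The simulation gave all groups the same mean for unchanged genes and a spread set by mean level, and changed no genes of low level. It therefore cannot give the recovery for genes of low level, or the error rate where groups differ in spread as here. Alternatives were no filter, DESeq2 1.42.0 size factors and Wald test, library totals, a replicate block, the in vivo PSMPs columns as 2 libraries, a fit to only the groups compared, and leaving out each column.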

Additional observations from a re-analysis of the deposited data

Results flagged for a closer look

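For 7 of the 34 genes the effect of in vivo PSMPs (against con) differed from the effect of in vitro PSMPs (against con-in vitro) by edgeR's test of the difference itself, beside 11.3% of all tested genes. Values are differences of log2 fold changes, in vivo minus in vitro, with their standard error. The difference was -2.84 ± 0.65 for Cenpa (edgeR adjusted p = 0.0257) and -4.20 ± 0.75 for Cenpn (edgeR adjusted p = 0.0103). It was -4.37 ± 0.98 for Cenph (edgeR adjusted p = 0.0243), -3.52 ± 0.90 for Ndc80 (edgeR adjusted p = 0.0387) and -2.33 ± 0.52 for Dsn1 (edgeR adjusted p = 0.0233). For Cenpl it was 6.66 ± 1.41 (edgeR adjusted p = 0.0188). For Cenpu the fitted difference was -14.92 (edgeR adjusted p = 0.00206), which rests on a con-in vitro group at 0 and is no measure of size. Leaving out any 1 column of SAHA, in vitro PSMPs or PSMPs & OE-Hdac3 left 2 of the 7, Cenpn and Cenpu, beside 3.69% to 5.55% of all tested genes. Without con replicate 1 or 2 the count was 11 and 15, beside 22.3% and 30.0% of all tested genes, and without con-in vitro replicate 1 it was 12, beside 17.8%.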

How the results depend on the processing

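The 50 called values (43 fold changes and 7 differences between exposure effects) kept their sign in all 19 alternative settings, and 748 of 950 pairs of value and setting stayed past the threshold. DESeq2's Wald test and the in vivo PSMPs columns as 2 libraries kept all 50. Lost most often were Nuf2 in con-in vitro against con (11 of 19 settings), and Cenpm there and Cenpe in in vitro PSMPs (10 each). Cenpo in SAHA against con, Spc24 in SAHA against con-in vitro and the difference for Ndc80 followed (9 each). Counts below are of the 34 genes, with the share of all tested genes in parentheses. In in vivo PSMPs against con the count of 2 (4.88%) became 0 (0.0239%) with a replicate block, 7 (25.0%) with the in vivo PSMPs columns as 2 libraries, 0 (0%) with only its groups fitted and 5 (16.3%) with DESeq2's Wald test. In in vitro PSMPs relative to con-in vitro, 8 calls (15.4%) became 16 (25.3%) with library totals, 4 (8.59%) with only its groups and 13 (27.7%) with DESeq2. SAHA against con had 6 (27.0%), and 3 (18.6%) with the block, 0 (0%) with only its groups and 13 (35.1%) with DESeq2. PSMPs & OE-Hdac3 against in vitro PSMPs had 3 (4.83%), and 5 (3.38%) with no filter, 13 (33.4%) with only its groups and 9 (15.5%) with DESeq2. Against in vivo PSMPs it had 0 (0%), and 2 (8.10%) with the in vivo columns as 2 libraries and 14 (44.9%) with only its groups. The 13 (25.1%) of con-in vitro against con became 8 (10.2%) with only its groups.

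Leaving out each column in turn gave 0 to 12 calls (0% to 25.9%) in in vivo PSMPs against con and 3 to 16 (6.55% to 32.6%) in in vitro PSMPs against con-in vitro. There were 4 to 18 (6.64% to 38.2%) in SAHA against con-in vitro, and 0 to 15 (1.31% to 39.8%) in SAHA against con. Leaving out columns gave 0 to 10 (0% to 14.3%) in PSMPs & OE-Hdac3 against in vitro PSMPs and 0 (0% to 3.16%) against in vivo PSMPs. In con-in vitro against con it gave 10 to 18 (15.6% to 39.1%). Over all genes PSMPs & OE-Hdac3 against in vivo PSMPs had 0 calls, 118 with no filter, 870 with DESeq2 and 7472 with only its groups. The cause of these changes was not tested.

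The labels do not say whether replicate numbers pair the libraries. The correlation of deviations between same-numbered libraries ran from -0.288 to 0.0566 over 10 pairs of groups, without in vivo PSMPs. It cannot show whether same-numbered libraries share an animal or a day. The replicate block gave 6 calls (10.9% of all tested genes) in in vitro PSMPs and 8 (13.8%) in SAHA against con-in vitro, and 12 (17.3%) in con-in vitro against con. With 2 libraries per group, 1 library in in vivo PSMPs and a strand setting that is not given, genes of a few counts and genes with opposite-strand neighbours are measured least well.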
